A study of Mus musculus with 12 samples.

Results

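The genotype by CDDO-Im interaction asks, gene by gene, whether the liver responded differently to CDDO-Im with and without Nrf2. It is the wild type effect (CDDO-Im minus vehicle) minus the Nrf2 null effect (CDDO-Im minus vehicle), on the log2 scale. All 12 of the 12 arrays of the series entered it, as 4 groups of 3 chosen by their titles, and all 18193 genes with a probe set of their own were tested. The livers came from male mice that were wild type or Nrf2 null and had received vehicle or CDDO-Im by gavage 6 hours earlier, at a dose the labels write as 30 uM/kg. Strain, age and the kind of null allele are not given in the sources used here. Whether each array is a separate animal is not said, so p-values measure the spread between these arrays, which may be technical. A "(2)" stands in the titles of the 6 vehicle arrays and in none of the CDDO-Im titles. A log2 shift tied to that mark and equal in both genotypes cancels in the difference of effects, and an unequal one cannot be told apart from the interaction.

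Nrf2 is a transcription factor, encoded by Nfe2l2, that is normally bound by Keap1 in the cytoplasm and degraded. When electrophiles modify cysteines of Keap1, Nrf2 accumulates, pairs with small Maf proteins and binds antioxidant response elements near genes of glutathione, quinone, thioredoxin and NADPH metabolism. CDDO-Im is a synthetic triterpenoid imidazolide that reacts with Keap1 and is known as a potent activator of this pathway in liver. An interaction above 0 means that the log2 effect was more positive in wild type, and one below 0 that it was more positive in Nrf2 null livers.

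Array medians ran from 5.77 to 5.83, and the mean correlation of an array with its own group from 0.986 to 0.994. Wild type vehicle replicate 3 had the lowest. That array also carried transcripts of pancreatic acinar cells, with a median deviation of 3.41 from the mean of all arrays over the 11 measured markers. The deviation was 2.02 in Nrf2 null vehicle replicate 2 and from -0.68 to -0.44 in the other 10 arrays. The 9 measured hepatocyte markers read above the array median on every array.

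The difference of effects passed limma's test in 25 genes at a Benjamini-Hochberg adjusted p under 0.05 (0.137% of genes tested). It was positive in 23 (0.126%) and negative in 2 (0.011%). At an unadjusted p under 0.05 there were 1291 genes, 479 positive (2.63%) and 812 negative (4.46%), so positive values prevailed among called genes and negative ones among all those at the looser threshold. Over all genes the median difference was 0.01, with a median standard error of 0.14. In all positive genes but Cxcl1 the wild type effect lay between 0.70 and 4.66 and the null effect between -0.62 and 0.70. These 22 were also the genes, among the 25 called, whose 3 wild type CDDO-Im arrays all read above the other 9. The call rests on the same arrays, so this separation adds no support to it. The share of all genes with such a separation was not counted. The effects in the 2 genotypes rest on different arrays, but each of them shares its arrays with the interaction, so they are given side by side as a description. For scale, the effect on its own passed in 0.978% of all genes upwards and 0.846% downwards in wild type, and in 3.58% and 2.32% in null livers. In bulk liver, fewer cells of a type and less RNA per cell cannot be told apart.

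**Figure D1:**
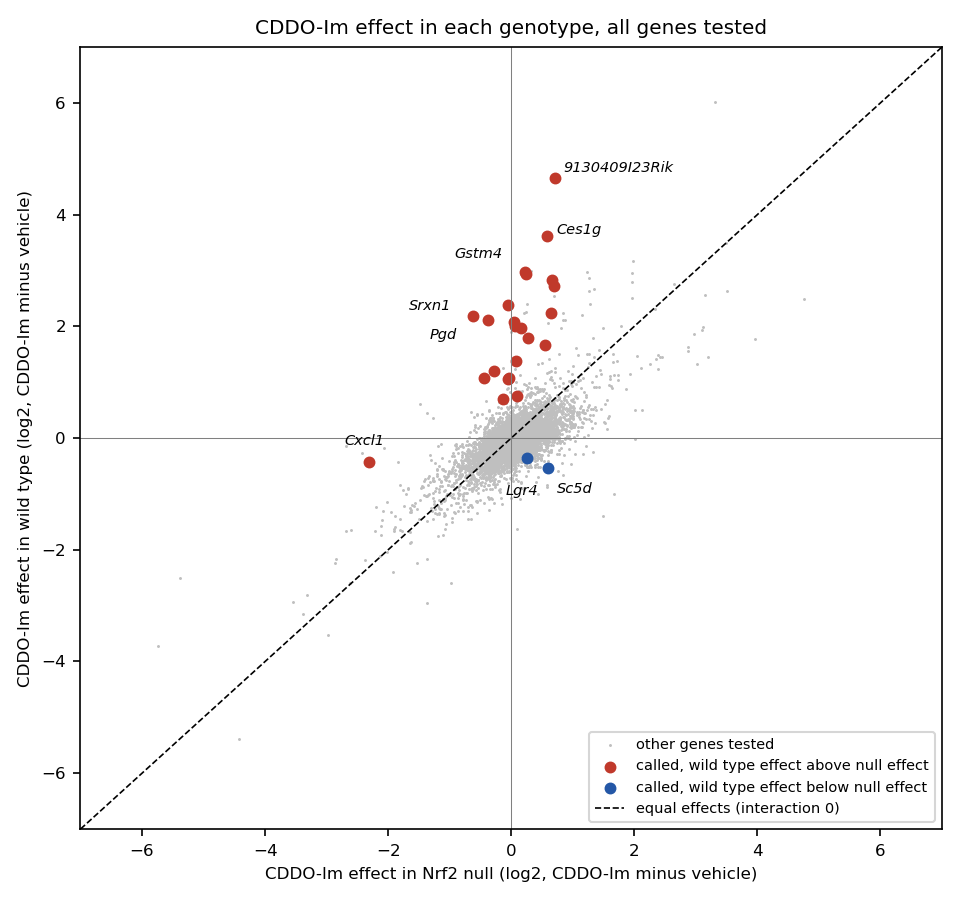
Each point is a gene, with the CDDO-Im effect in Nrf2 null livers on the x axis and in wild type livers on the y axis (log2, CDDO-Im minus vehicle, means of 3 arrays). The dashed line marks equal effects, red points are the 23 genes called positive and blue points the 2 called negative. Of the red points 22 stand above the cloud near a null effect of 0, and Cxcl1 lies to the left at a null effect of -2.31.

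Thioredoxin and peroxide genes gave the called difference with the smallest adjusted p. Srxn1 (Entrez Gene 76650) encodes sulfiredoxin, which repairs overoxidised peroxiredoxins. With vehicle it read 8.24, 8.20 and 8.18 in wild type and 8.19, 8.30 and 8.16 in Nrf2 null livers. With CDDO-Im it read 10.44, 10.37 and 10.39 in wild type and 7.64, 7.47 and 7.69 in Nrf2 null livers. The groups given CDDO-Im thus left the shared vehicle level in opposite directions with no overlap. The effect was 2.19 in wild type and -0.62 in null livers, and both passed the test. The difference was 2.81 ± 0.10 (SE, n = 3 arrays in each of 4 groups, limma adjusted p = 8.7e-08), a 7.01-fold ratio of the 2 fold changes. Other probe sets of Srxn1 gave 3.45, 2.39 and 0.12, the last of them not called.

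Txnrd1 (Entrez Gene 50493), the cytosolic thioredoxin reductase, differed by 1.48 ± 0.17 (adjusted p = 0.00332). It read 10.03, 10.19 and 9.68 in wild type with vehicle and 11.15, 11.25 and 11.11 with CDDO-Im. Without Nrf2 it read 9.61, 9.56 and 9.74 with vehicle and 9.54, 9.26 and 9.29 with CDDO-Im. Only the wild type groups parted upwards, and the null effect was -0.27 (adjusted p = 0.24). Its substrate thioredoxin, Txn1, differed by 0.67 and did not pass (adjusted p = 0.133). Of 14 measured genes of this list 2 were called, both positive, and the list's median was 0.01, as over all genes.

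Quinone and carbonyl reductases held 3 called genes among 17 measured, all positive, beside a list median of 0.03 that was 0.13 without wild type vehicle replicate 3. Nqo1 (Entrez Gene 18104), which reduces quinones with 2 electrons, read 7.15, 7.18 and 7.26 in wild type with CDDO-Im. Its vehicle values in wild type were 5.12, 5.06 and 5.19. In Nrf2 null livers it read 4.99, 4.70 and 4.82 with vehicle and 4.89, 4.90 and 4.86 with CDDO-Im. Wild type CDDO-Im was the only group to read above 5.19, and the difference was 2.03 ± 0.11 (adjusted p = 5.04e-06). Cbr3 (Entrez Gene 109857), a carbonyl reductase, followed the same order with a difference of 1.95 ± 0.14 (adjusted p = 6.06e-05). Cbr1 (Entrez Gene 12408), its close relative, differed by 2.03 ± 0.23 (adjusted p = 0.00332) but had an effect in both genotypes, 2.73 in wild type and 0.69 in null livers (adjusted p = 0.0333 for the latter). Akr1a1, an aldehyde reductase, differed by 0.56 and did not pass (adjusted p = 0.154).

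Glutathione S-transferases, which conjugate electrophiles to glutathione, held 2 called genes among 20 measured. The list's median was 0.09, and 0.29 without wild type vehicle replicate 3. Gstm4 (Entrez Gene 14865) read 7.89, 7.79 and 8.60 in wild type with vehicle and 11.27, 10.72 and 11.21 with CDDO-Im. Without Nrf2 it read 7.93, 8.01 and 7.84 with vehicle and 8.17, 8.10 and 8.18 with CDDO-Im. The third wild type vehicle array was the highest outside the wild type CDDO-Im group and still lay more than 2 log2 units below it. The difference was 2.75 ± 0.27 (adjusted p = 0.00083), a 6.74-fold ratio of fold changes. Gstm3 (Entrez Gene 14864) differed by 2.71 ± 0.35 (adjusted p = 0.00825), and its second probe set by 2.93. Mu class genes are close copies of each other, so probe sets may read more than 1 of them.

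Gsta2 and Gsta4, transferases of the alpha class, rose in both genotypes. Gsta2 rose by 6.02 in wild type and by 3.31 in null livers, and the difference of 2.71 (95% interval 1.43 to 3.98) did not pass over all genes (adjusted p = 0.178). Its wild type vehicle values were 4.71, 4.49 and 6.25, with the third array standing above the others. Without that array the difference was 3.26 and passed (adjusted p = 0.00322). Gsta4 rose by 2.87 and 1.27, and its difference of 1.60 (adjusted p = 0.244) became 2.02 (adjusted p = 0.000156) without the same array.

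Glutathione synthesis and recycling held 1 called gene among 12 measured, with 9 above 0 and a median of 0.32. Gsr (Entrez Gene 14782), glutathione reductase, read 11.55, 11.60 and 11.58 in wild type with CDDO-Im against 9.60, 9.56 and 9.68 with vehicle. In Nrf2 null livers it read 9.38, 9.66 and 9.39 with vehicle and 9.45, 9.64 and 9.83 with CDDO-Im. The null groups overlapped, and the difference was 1.80 ± 0.15 (adjusted p = 0.000122), a 3.48-fold ratio of fold changes. Gclc, the catalytic subunit of glutamate-cysteine ligase, rose in both genotypes, 7.81-fold in wild type and 2.35-fold in null livers. Its difference of 1.73 (95% interval 0.97 to 2.50) did not pass (adjusted p = 0.155). The modifier subunit Gclm differed by 0.71 (95% interval 0.41 to 1.01, adjusted p = 0.133).

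**Figure D2:**
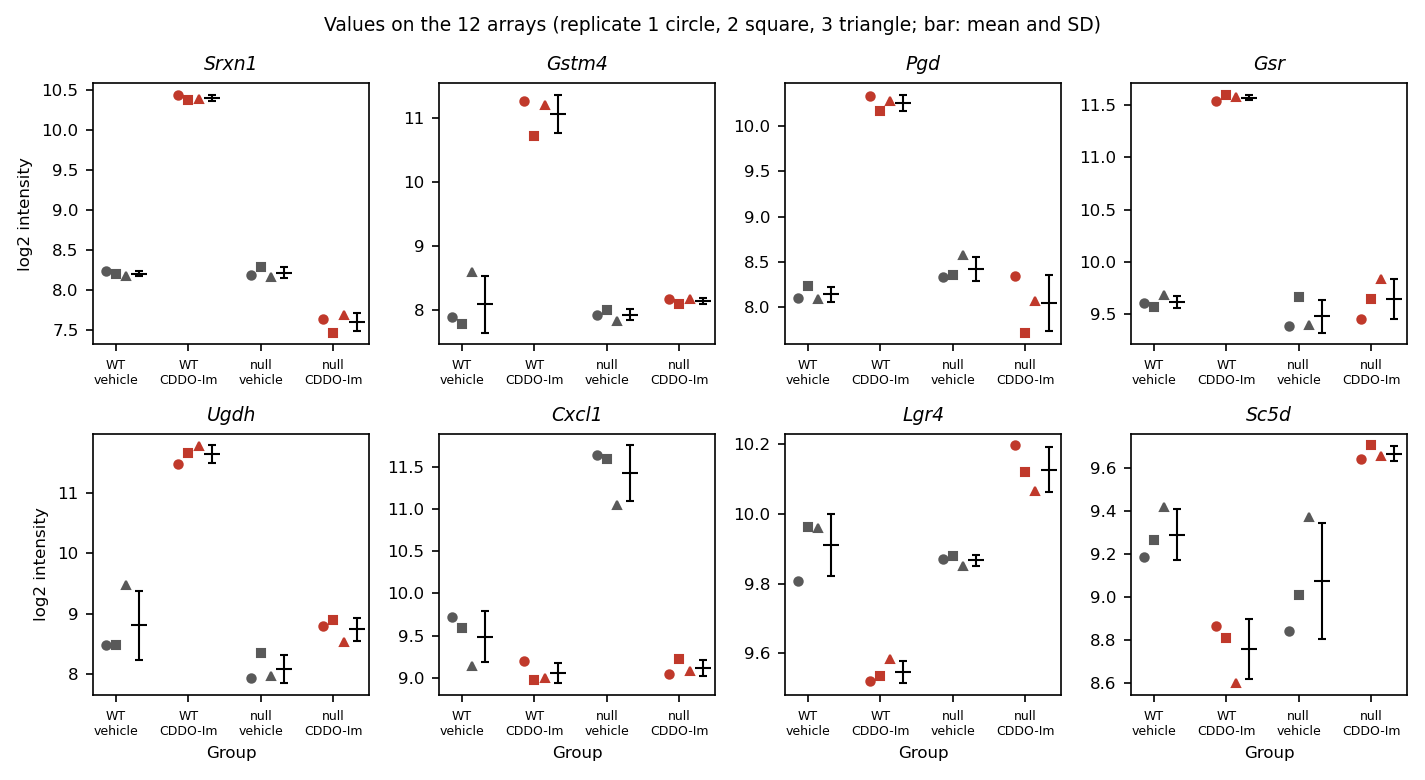
Log2 intensity on each of the 12 arrays (y axis) by group (x axis) for 8 called genes, with grey symbols for vehicle, red for CDDO-Im, and the mean and SD of 3 arrays beside them. In the first 5 panels wild type CDDO-Im alone stands high, Cxcl1 is high only in Nrf2 null livers given vehicle, and Lgr4 and Sc5d are lowest in wild type and highest in null livers after CDDO-Im.

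NADPH, which the reductases above consume, is supplied in part by the pentose phosphate pathway, and 2 of 9 measured genes of that list were called, both positive. Pgd (Entrez Gene 110208), the 6-phosphogluconate dehydrogenase, read 8.10, 8.24 and 8.09 in wild type with vehicle and 10.34, 10.17 and 10.28 with CDDO-Im. Values without Nrf2 were 8.34, 8.36 and 8.58 with vehicle and 8.34, 7.72 and 8.07 with CDDO-Im. The wild type CDDO-Im arrays lay apart from the other 9, and the difference was 2.50 ± 0.19 (adjusted p = 6.58e-05). The other 3 probe sets of Pgd gave 2.41 to 2.59. Tkt (Entrez Gene 21881), transketolase, differed by 1.12 ± 0.17 (adjusted p = 0.0284), with effects of 1.67 in wild type and 0.55 in null livers. Its other probe sets gave 1.35 and 0.14, the latter dim and not called. Me1, malic enzyme, rose in both genotypes (1.51 and 0.77), and its difference of 0.74 did not pass (adjusted p = 0.363).

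Glucuronidation transfers glucuronic acid from UDP-glucuronate to drugs and bilirubin. Its list had 2 called genes among 10 measured and a median of 0.41, with 8 of 10 above 0. Without wild type vehicle replicate 3 the median was 0.68. Ugdh (Entrez Gene 22235) makes UDP-glucuronate. It read 8.48, 8.48 and 9.47 in wild type with vehicle and 11.48, 11.66 and 11.77 with CDDO-Im. Without Nrf2 it read 7.94, 8.35 and 7.96 with vehicle and 8.79, 8.90 and 8.54 with CDDO-Im. The third wild type vehicle array read about 1 log2 unit above its group, and the difference was 2.17 ± 0.32 (adjusted p = 0.0238). Without that array it was 2.50 (adjusted p = 9.21e-05). Ugt2b35 (Entrez Gene 243085), a UDP-glucuronosyltransferase, differed by 1.52 ± 0.20 (adjusted p = 0.00825), and its relative Ugt2b5 by 0.68 (adjusted p = 0.363), which without that array was 0.88 (adjusted p = 0.0074).

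Heme breakdown and iron handling held 2 called genes among 12 measured. Blvrb (Entrez Gene 233016), a biliverdin and flavin reductase, differed by 1.60 ± 0.21 (adjusted p = 0.00775), with effects of 2.24 in wild type and 0.64 in null livers. Slc48a1 (Entrez Gene 67739), a heme transporter, differed by 1.30 ± 0.21 (adjusted p = 0.0364), with effects of 1.37 and 0.08. Its second probe set gave 0.88 and was not called. Hmox1, which opens the heme ring, had effects of 0.58 in wild type and 0.10 in null livers. Its difference of 0.48 (95% interval 0.01 to 0.96) did not pass (adjusted p = 0.695). The transferrin receptor Tfrc had a larger difference, 2.03, that did not pass (adjusted p = 0.231), and its null CDDO-Im arrays spread from 7.90 to 9.41.

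The largest called difference outside clone names was that of Ces1g (Entrez Gene 12623), a liver carboxylesterase. It read 4.81, 4.51 and 5.36 in wild type with vehicle and 8.12, 8.56 and 8.83 with CDDO-Im. The null livers had 4.16 ± 0.15 (SD, n = 3) with vehicle and 4.50, 4.74 and 4.97 with CDDO-Im. The difference was 3.03 ± 0.31 (adjusted p = 0.0011), and it was the only called gene of 10 measured carboxylesterases, whose median was 0.00 with all arrays and 0.34 without wild type vehicle replicate 3. Pir (Entrez Gene 69656), the iron-binding nuclear protein pirin, differed by 2.43 ± 0.28 (adjusted p = 0.00332). Osgin1 (Entrez Gene 71839), an oxidative stress induced growth inhibitor, differed by 1.52 ± 0.22 (adjusted p = 0.0216), with effects of 1.07 in wild type and -0.45 in null livers, the latter not called (adjusted p = 0.126). In Ces1g, Nqo1, Cbr3 and the clone 9130409I23Rik at least 1 group read below the array medians on all its arrays. No measure of background was used, which leaves the sizes of these 4 differences uncertain, and no fold is given for them.

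The remaining 5 positive genes were singled out after their values were seen, so as to account for all that were called. The clone 9130409I23Rik had the largest difference of any gene called, 3.95 ± 0.29 (adjusted p = 6.06e-05). It read 3.54, 3.71 and 4.11 in wild type with vehicle and 7.98, 8.60 and 8.74 with CDDO-Im. Values without Nrf2 were 3.80, 3.93 and 3.77 with vehicle and 4.30, 4.86 and 4.44 with CDDO-Im, all below the array medians. Cds2, which makes CDP-diacylglycerol for phosphoinositides, differed by 1.12 ± 0.17 (adjusted p = 0.0238), and its 5 other probe sets gave 0.43 to 1.29. Not all of these 5 were called (limma adjusted p from 0.021 to 0.84 over all probe sets). Arpp19, an inhibitor of protein phosphatase PP2A, differed by 1.12 ± 0.17 (adjusted p = 0.0238), with 0.67 and 0.54 in its other probe sets, neither called. Cdc34, a ubiquitin-conjugating enzyme, and Dcaf12, a substrate receptor of a cullin ubiquitin ligase, had the smallest differences among the positive genes, 0.84 ± 0.14 (adjusted p = 0.0379) and 0.67 ± 0.11 (adjusted p = 0.0461). Other probe sets of Dcaf12 gave 0.52, 0.74 and 0.20, none of them called.

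The promoters of the called genes were searched for the core letters of the antioxidant response element, TGACNNNGC on either strand, because that is the element Nrf2 is known to bind. The windows, from 250 bases before to 50 after each start site, were taken from RefSeq (mouse build GRCm38.p6). A match was found for 7 of the 21 positive genes with a window (33.3%), against 16.1% of the 14368 tested genes with a window. Counted by window it was 25% of the 28 windows of positive genes, against 13.8% of the 18009 windows of tested genes. Over all 32851 windows, untested genes included, it was 12.4%. Of the 2 negative genes Lgr4 held a match, at -245, and Sc5d none. Gsr and Slc48a1 had no window. Matches upstream of the start site of 4 genes are shown 5′ to 3′ on the gene's strand, with the match in capitals, to let the spacing around the core be seen.
9130409I23Rik: ggcacagcctGCAGAGTCAgctgaccagg
Pir: gcatagagagGCTGAGTCActcccccaaa
Txnrd1: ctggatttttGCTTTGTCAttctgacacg
Ugdh: gcggagcccgTGACTTAGCtggagctgat
They lie at chr1:181051136-181051164 (plus strand), chrX:164269207-164269235 (plus), chr10:82859104-82859132 (plus) and chr5:65435956-65435984 (minus). The first base of the match stands at positions -91, -214, -92 and -132 from the start site. In 9130409I23Rik, Pir and Txnrd1 the letters are the reverse complement of the core, and in Ugdh they read forward. The windows of 9130409I23Rik and Ugdh held further upstream matches, at -159 and -80 and at -94. A match is a description of letters and not a measured binding site. Srxn1, Pgd and Dcaf12 held their match only after the start site, and Nqo1, Gstm4 and Gstm3 held none in this window. Only the letters TGACNNNGC were searched. Other forms of the element were not counted, so a window without a match may still hold one.

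Cxcl1 (Entrez Gene 14825), a chemokine that draws neutrophils, was the only positive gene whose effect was larger in size in Nrf2 null livers. In wild type it read 9.73, 9.59 and 9.14 with vehicle and 9.05 ± 0.12 (SD, n = 3) with CDDO-Im. The null livers had 11.64, 11.60 and 11.05 with vehicle and 9.04, 9.22 and 9.08 with CDDO-Im. The null vehicle arrays stood apart from the other 9, so the called difference, 1.88 ± 0.24 (adjusted p = 0.00715), goes with a gap between the vehicle groups. Wild type minus null was -1.94 with vehicle (adjusted p = 0.000349, in a comparison that called 0.39% of genes). After CDDO-Im it was -0.06 (adjusted p = 0.962). The other 2 probe sets gave 1.57 and 1.59 and were not called, and with the mean of all 3 probe sets the call ended (adjusted p = 0.482). Among 23 measured cytokines, chemokines and NF-kB targets no other gene was called. The 7 measured neutrophil markers had a mean level of 6.75, 6.97 and 6.72 on the Nrf2 null vehicle arrays and of 6.33 to 6.64 on the other 9. Their median deviation from the mean of all arrays was 0.22, 0.17 and -0.08 on the Nrf2 null vehicle arrays. On the other 9 it ran from -0.16 to 0.05, so the third null vehicle array stood high by the mean but not by the median. The median difference of effects of these markers was 0.18, and their part in the Cxcl1 difference was not tested. None of them passed limma's test or had an unadjusted p under 0.05 for the interaction.

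The 2 negative genes had effects below 0 in wild type and above 0 in null livers. Lgr4 (Entrez Gene 107515), a receptor for R-spondins that amplifies Wnt signalling, read 9.81, 9.96 and 9.96 in wild type with vehicle and 9.52, 9.54 and 9.58 with CDDO-Im. Values without Nrf2 were 9.87, 9.88 and 9.85 with vehicle and 10.20, 10.12 and 10.06 with CDDO-Im. The vehicle groups shared a level, and the CDDO-Im groups lay on opposite sides of it without overlap. The effects of -0.36 and 0.26 both passed (adjusted p = 0.0197 and 0.0445), and the difference was -0.62 ± 0.10 (adjusted p = 0.0272). The call ended in 10 of the 12 fits that left out 1 array. Without Nrf2 null vehicle replicate 2, the other array with acinar transcripts, the difference was -0.63 (adjusted p = 0.0905). Without wild type vehicle replicate 3 it was -0.60 and still called (adjusted p = 0.048). A dim second probe set gave 0.14 and was not called.

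Sc5d (Entrez Gene 235293), the sterol desaturase that forms 7-dehydrocholesterol late in cholesterol synthesis, read 9.19, 9.26 and 9.42 in wild type with vehicle and 8.87, 8.81 and 8.60 with CDDO-Im. In Nrf2 null livers it read 8.84, 9.01 and 9.37 with vehicle and 9.64, 9.70 and 9.65 with CDDO-Im. The vehicle groups overlapped and the CDDO-Im groups did not. The wild type effect was -0.53 (adjusted p = 0.0535), the null effect 0.59 (adjusted p = 0.0196) and the difference -1.12 ± 0.17 (adjusted p = 0.0284). The call ended in 10 of the 12 fits that left out 1 array. Among these, without Nrf2 null vehicle replicate 2, the difference was -1.09 (adjusted p = 0.123). Sc5d was the only gene called among 17 measured cholesterol synthesis genes, 14 of which lay below 0, with a median of -0.18. Without wild type vehicle replicate 3 only 10 of the 17 lay below 0, with a median of -0.13. The other probe sets of Sc5d gave -1.13 and -0.09, neither called.

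**Figure D3:**
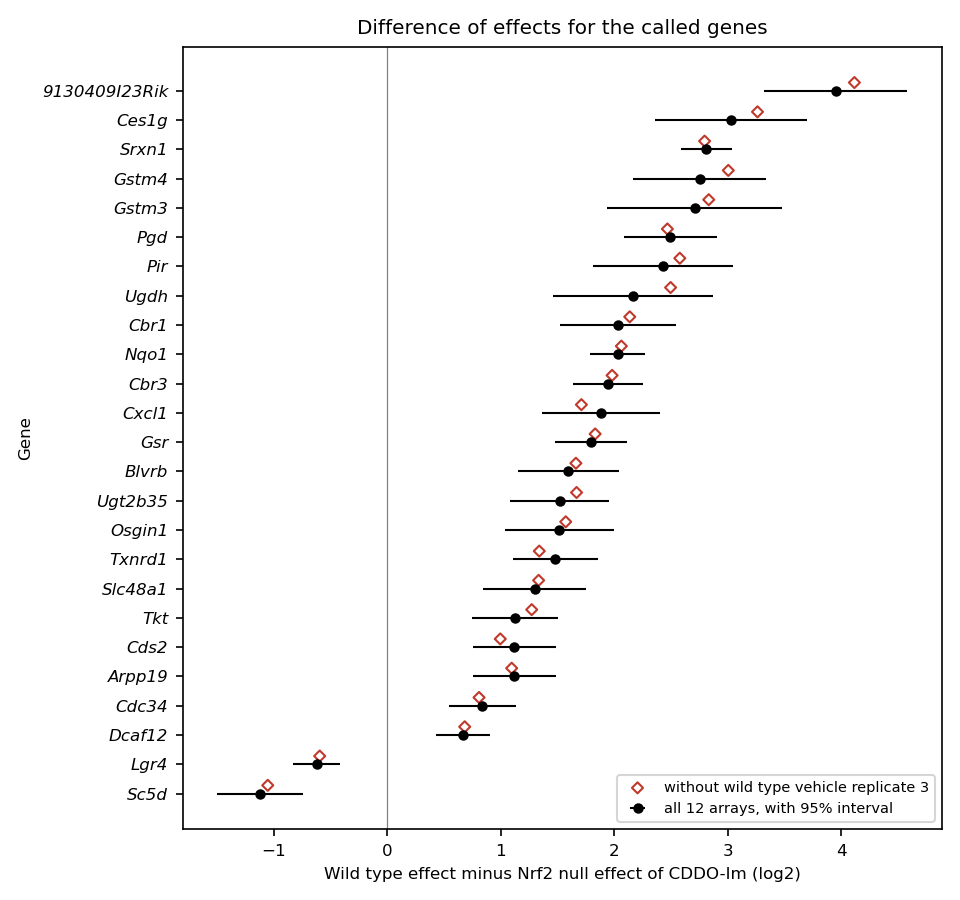
Difference of effects (x axis, log2, wild type minus Nrf2 null) for the 25 called genes (y axis), with 95% intervals from the fit to all 12 arrays, and the value without wild type vehicle replicate 3 as an open diamond. The intervals are not adjusted for the number of genes, and in each of these genes the diamond keeps the sign.

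Among the regulators of the pathway no gene passed the test of the difference. Nfe2l2 read 8.37 to 9.14 in the 6 wild type arrays and 4.44 to 4.96 in the 6 null arrays, which bears out the genotype labels. All null readings lay below the array medians, so its difference of effects, -0.05 (adjusted p = 0.987), says nothing of how the gene is regulated. Keap1 differed by 0.34 (95% interval 0.08 to 0.60, adjusted p = 0.534) and the small Maf gene Mafg by 0.51 (adjusted p = 0.453). None of 13 measured regulators passed limma's test, and 2 had an unadjusted p under 0.05, both positive, as did 2.63% of all genes.

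Export pumps, phase 1 enzymes and a hepatokine had differences that did not pass with all arrays. Abcc3, an export pump for glucuronides, differed by 2.66 (95% interval 1.58 to 3.75, adjusted p = 0.118). Its wild type vehicle values were 8.58, 8.10 and 9.86, and without the third of these arrays the difference was 3.17 (adjusted p = 0.000314). Ephx1, microsomal epoxide hydrolase, differed by 1.37 (adjusted p = 0.513), and by 1.85 without that array (adjusted p = 0.0219). Cyp1a2, a target of the aryl hydrocarbon receptor, rose by 2.40 in wild type and 1.28 in null livers. It differed by 1.12 (adjusted p = 0.168), and by 1.33 without that array (adjusted p = 0.00797). Fgf21, a hepatokine of fasting and stress, had effects of 1.89 and 0.00 with a difference of 1.90 that did not pass (adjusted p = 0.195).

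Several lists of metabolic genes lay mostly below 0 without a called member by limma. In fatty acid and triglyceride synthesis 18 of 24 genes were below 0, with a median of -0.30 and 4 genes at an unadjusted p under 0.05, all negative. Over all genes 4.46% were negative at that threshold. Without wild type vehicle replicate 3, 16 of the 24 lay below 0, with a median of -0.20. The list's widest value was that of Thrsp, a lipogenic regulator. After CDDO-Im it read 7.96 to 8.75 in wild type and 11.31 to 11.87 in null livers. The difference of -2.89 (95% interval -4.11 to -1.67) did not pass (adjusted p = 0.133). Elovl5, a fatty acid elongase, differed by -1.02 (adjusted p = 0.188) and Dgat2, which completes triglycerides, by -0.68 (adjusted p = 0.275).

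Clock genes lay below 0 in 15 of 18 cases (median -0.23), 4 of them at an unadjusted p under 0.05. Hlf, a clock output factor, had effects of 0.01 in wild type and 0.53 in null livers, and a difference of -0.52 (adjusted p = 0.383). Liver nuclear receptors lay below 0 in 11 of 13 cases (median -0.11), with 4 at an unadjusted p under 0.05. Ppara, the fatty acid receptor that drives oxidation genes, had effects of -0.14 and 1.22, and a difference of -1.37 (adjusted p = 0.167). Its vehicle values were 10.76, 10.59 and 10.59 in wild type and 9.03, 9.61 and 9.93 in null livers, so the vehicle groups did not overlap. Uptake transporters lay below 0 in 7 of 9 cases, with a median of -0.56 that was -0.33 without wild type vehicle replicate 3. Over all genes 51.6% lay above 0, and at an unadjusted p under 0.05 2.63% were positive and 4.46% negative.

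Above 0 without a called member by limma stood the Myc and ribosome biogenesis list, in 15 of 20 genes (median 0.22), with 8 positive and 1 negative at an unadjusted p under 0.05. Over all genes 2.63% were positive and 4.46% negative at that threshold, the scale for each such count here. Rrp12, a ribosome assembly factor, differed by 0.58 (adjusted p = 0.256) and Utp20 by 0.56 (adjusted p = 0.277), whereas Npm1 differed by -0.61 (adjusted p = 0.363). Proteasome subunits, known targets of the pathway, had a median of 0.05 over 32 genes, 1 of them at an unadjusted p under 0.05. In all, 9 pathway lists held a called positive gene, 1 a called negative gene and the other 26 none. None of the 10 marker lists of liver cell types, blood cells, adipocytes and acinar cells held a gene called by limma. At an unadjusted p under 0.05 the sinusoidal endothelial list had 1 positive and 2 negative genes, and no other marker list had more than 1.

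**Figure D4:**
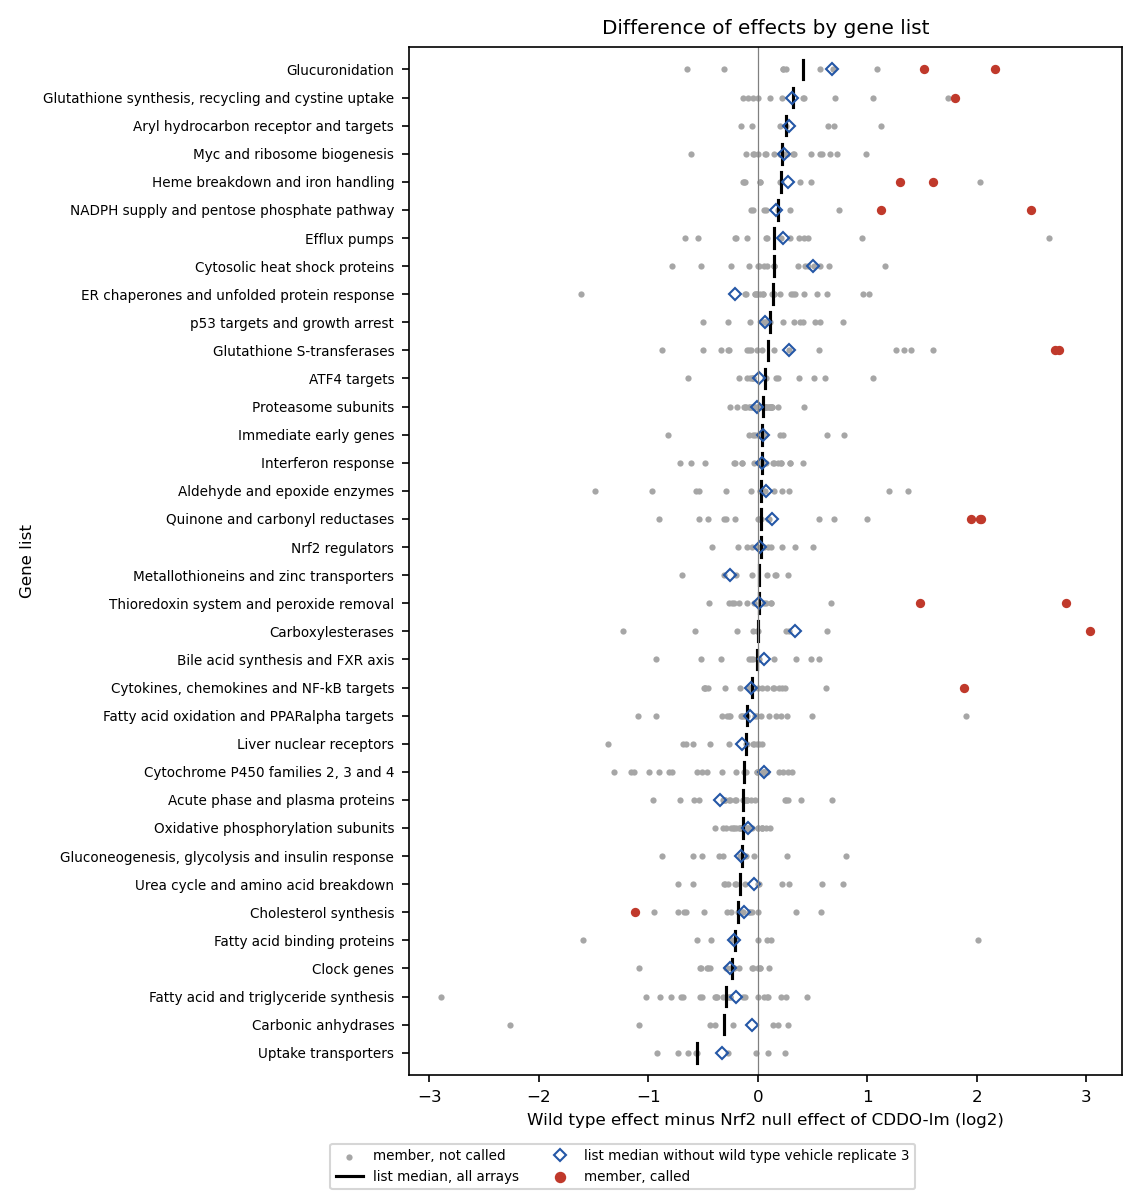
Difference of effects (x axis, log2, wild type minus Nrf2 null) of every measured gene in the 36 pathway lists (y axis, ordered by median), with called genes in red, list medians as black bars and medians without wild type vehicle replicate 3 as open diamonds. Positive called genes stand to the right of the members of their list that lie near 0, Sc5d stands at the left end of the cholesterol list, and diamonds part from bars most in the carboxylesterase, heat shock, endoplasmic reticulum and metallothionein lists.

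Wild type vehicle replicate 3 carried weight in how many genes were called. Without it 46 genes passed (0.253%), 36 positive (0.198%) and 10 negative (0.055%), of which 23 were among the 25 called with all arrays. Cdc34 (adjusted p = 0.0541) and Dcaf12 (adjusted p = 0.0525) lost their call. Glutathione S-transferases then had 7 called genes of 20, and among those gained, named after their values were seen, Gstm1, Gstm6 and Gstp1 differed by 1.68, 1.53 and 0.84. Entpd5, a nucleotidase of the endoplasmic reticulum, moved from 1.46 (adjusted p = 0.133) to 1.73 (adjusted p = 0.00103). Among the 8 negative genes gained, also named after their values were seen, Derl3 moved from -1.61 to -2.52, Fabp5 from -1.59 to -2.14 and Nucb2 from -0.48 to -1.33. Derl3, a factor of endoplasmic reticulum associated degradation, read 11.06, 10.72 and 8.17 in wild type with vehicle, so the third array lay well below the others. The median of the endoplasmic reticulum list was 0.14 with all arrays and -0.21 without this one, and that of the heat shock list 0.15 and 0.50. Without both arrays that carried acinar transcripts 39 genes passed (0.214%). The acinar list itself, all 11 members of which lay below 0, had a median of -0.55, and of 0.12 without both arrays. The part of acinar RNA in these differences was not tested.

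Other arrays also moved the count. It was 15 without wild type CDDO-Im replicate 2 or without Nrf2 null CDDO-Im replicate 2, 16 without Nrf2 null vehicle replicate 2 or Nrf2 null CDDO-Im replicate 3, and 27 without Nrf2 null vehicle replicate 3, of which 9 were negative. Srxn1, Nqo1, Gsr, Txnrd1, Pgd, Gstm3, Gstm4, Cbr1, Cbr3, Pir, Ces1g, Blvrb, Ugt2b35, Cxcl1 and 9130409I23Rik, 15 of the 25, were called whichever single array was left out. The calls of Cdc34 and Dcaf12 ended in 11 of these 12 fits, those of Ugdh, Tkt, Lgr4 and Sc5d in 10, Slc48a1 and Arpp19 in 8, Cds2 in 6 and Osgin1 in 5. All 25 kept their sign in each of them. All 10 of these calls ended without wild type CDDO-Im replicate 2, without Nrf2 null CDDO-Im replicate 2 and without Nrf2 null vehicle replicate 2. In the last of these fits the adjusted p was 0.0749 for Osgin1, Cds2 and Arpp19 and 0.0905 for Ugdh and Lgr4. It was 0.123 for Tkt and Sc5d, 0.129 for Cdc34, 0.136 for Slc48a1 and 0.166 for Dcaf12. Without both arrays that carried acinar transcripts Slc48a1, Arpp19, Cdc34, Dcaf12, Lgr4 and Sc5d were not called (adjusted p from 0.0748 to 0.124).

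**Figure D5:**
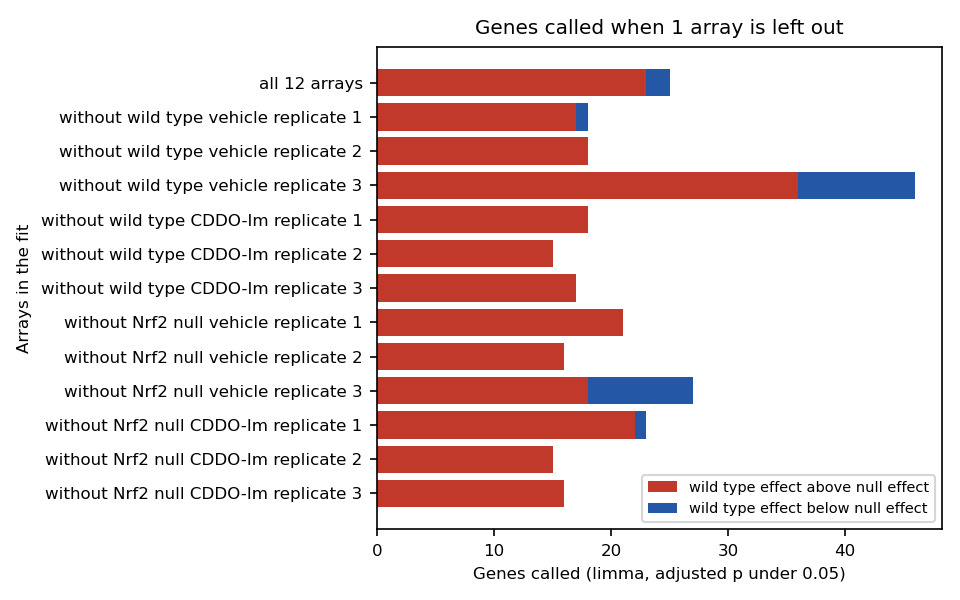
Number of genes called by limma (x axis, adjusted p under 0.05) with all 12 arrays and with each array left out in turn (y axis), in red where the wild type effect was above the null effect and in blue where it was below. The count runs from 15 to 46, and negative genes number 10 without wild type vehicle replicate 3 and 9 without Nrf2 null vehicle replicate 3.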

How the data were processed

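Liver RNA was measured on 12 one-colour Affymetrix mouse arrays. The values deposited by the authors are log2 intensities made with RMA (its version is not given in the sources used here), per the submitters' processing notes, and were used unaltered. Of 45101 probe sets, 34945 name 1 gene, 932 several, 9160 none and 64 are controls. Entrez Gene ids matched 34741 and changed 0 symbols. Each of 18193 genes was read by its probe set with the highest mean. A model with 1 mean per group was fitted with limma 3.58.1 in R 4.3.3 (statmod 1.5.0 for array weights), with a two-sided moderated test of the difference of effects, 8 residual and 3.81 prior degrees of freedom, and calls at a Benjamini-Hochberg adjusted p under 0.05. No gene was dropped for low signal. The number of arrays limits the precision. The method was tested on simulated data with independent noise and no outlying array. That test does not cover an array such as wild type vehicle replicate 3.

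Members and lists (36 pathway lists and 10 marker lists, 644 of 703 genes measured) were chosen with earlier results of these data known. Genes could be named if among the 15 largest called differences in either direction without clone names, the 4 members of a pathway list with the smallest p, called genes with opposite called effects, or Srxn1, Txnrd1, Hmox1, Nqo1, Gclm, Gclc, Keap1 and Nfe2l2; others are marked. Replicate numbers are shared between groups, and the labels do not say whether they pair the arrays. Deviations of same-numbered arrays correlated between -0.30 and 0.28, over 0.1 in 4 of 18 pairs. Between vehicle and CDDO-Im, replicates 1 to 3 gave -0.01, 0.25 and 0.19 in wild type. In null livers they gave 0.07, 0.07 and 0.28. The main fit did not take the numbers as pairs, and a fit with them as a block is given below.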

Additional observations from a re-analysis of the deposited data

Results flagged for a closer look

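A gene is listed here because its CDDO-Im effect differed between the genotypes by the test of that difference (limma, adjusted p under 0.05, log2, wild type minus Nrf2 null). The enzymes of glutathione, quinone and thioredoxin chemistry were Srxn1 (2.81), Gstm4 (2.75), Gstm3 (2.71), Cbr1 (2.03), Nqo1 (2.03), Cbr3 (1.95), Gsr (1.80) and Txnrd1 (1.48). Those of NADPH, glucuronide, heme and ester metabolism were Ces1g (3.03), Pgd (2.50), Ugdh (2.17), Blvrb (1.60), Ugt2b35 (1.52), Slc48a1 (1.30) and Tkt (1.12). Outside these groups stood 9130409I23Rik (3.95), Pir (2.43), Cxcl1 (1.88), Osgin1 (1.52), Cds2 (1.12), Arpp19 (1.12), Cdc34 (0.84) and Dcaf12 (0.67). Lgr4 (-0.62) and Sc5d (-1.12) were below 0.

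Probe sets naming no gene or more than 1 did not enter the comparison and had a separate fit. Of 10092 such probe sets 8 were called, 7 of them positive. The probe set 1421041_s_at, shared by Gm3776, Gsta2 and Gsta1, gave 4.54 ± 0.47 (SE, limma adjusted p = 0.000856), with effects of 6.44 in wild type and 1.90 in null livers. Its mean was 5.25 and 5.08 in the vehicle groups, below the array medians, so the size of its difference is uncertain, and which of the 3 genes it reads cannot be told. The probe sets 1418364_a_at and 1422301_at, which name the ferritin light chain gene Ftl1 beside its pseudogene (the second also names microRNA genes), gave 0.93 and 0.92. The probe sets 1441430_at (1.69), 1451814_a_at (1.51), 1448484_at (1.31), 1416835_s_at (1.14) and 1444054_at (-0.59) name no gene here, and the first of them also read below the array medians with vehicle (4.61 and 4.58).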

How the results depend on the processing

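All 25 called genes kept their sign under each of the 23 alternatives, and 10 stayed called in all of them. Some alternatives change only the test, so the sign could not turn there. They are the replicate block, the intensity trend, the stricter adjusted p, the minimum fold and dropping genes with no group mean above the median. With every probe set a gene was read by the one with the smallest p, which passes over the second Lgr4 probe set (0.14). Leaving out 1 array gave 15 to 46 called genes, 15 to 36 of them positive and 0 to 10 negative (limma, 926 to 1928 genes at an unadjusted p under 0.05). Array weights gave 89, 48 positive and 41 negative. Without both arrays with acinar transcripts there were 39, 35 and 4. An adjusted p under 0.01 gave 15, all positive, and a minimum fold of 1.5 (limma's treat) gave 10, all positive, with 0 negative in both (1291 and 66 genes at an unadjusted p under 0.05). Negative genes numbered 1 with an intensity trend and robust prior, 1 with the mean of a gene's probe sets, 1 with arrays centred on their medians and 4 with every probe set. The cause of these moves was not tested. The value of Nfe2l2, close to 0, turned positive with array weights (0.03) and without wild type CDDO-Im replicate 1 (0.13) or Nrf2 null vehicle replicate 3 (0.09). It ran from -0.26 to 0.13 with 1 array left out and was never called.

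With the replicate number as a block 20 genes were called, 20 positive and 0 negative by limma (1221 at an unadjusted p under 0.05), and 18 of the 25 were among them. Whether the numbers pair the arrays is not said in the labels.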

Other observations

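At an adjusted p under 0.1 limma's test added 2 genes to the 25, both positive and both named after their values were seen. Ikbkg, the NEMO subunit of the kinase complex that activates NF-kB, differed by 0.83 (adjusted p = 0.082), with effects of 0.68 in wild type and -0.15 in Nrf2 null livers. Its wild type CDDO-Im values were 9.34, 9.07 and 9.24, and the other 9 arrays lay between 8.44 and 8.82. Sult1e1, the estrogen sulfotransferase, differed by 0.75 (adjusted p = 0.0895), with effects of 0.15 and -0.60. Its highest values were the Nrf2 null vehicle arrays, 4.87, 4.51 and 4.85, all below the array medians, and the other 9 lay between 4.04 and 4.30.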
